A study of Arabidopsis thaliana with 24 samples.

Results

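The organ difference inside the line labelled 41-OX was measured as its 4 root libraries against its 4 shoot libraries, 8 of the 24 RNA-seq libraries of the series. The members were taken by name, as the 4 root and the 4 shoot columns of that line. 41-OX carries, per the labels, constitutive CLE41; the promoter that drives it and the number of independent lines are not given in the sources used here. The other lines were Col-0 wild type (WT) and pxy-5 (pxy), each with 4 root and 4 shoot libraries. All plants were Arabidopsis thaliana, 7 days old. The labels name no treatment.

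CLE41 encodes a small secreted peptide, TDIF, that is made in the phloem. Its receptor is the leucine-rich repeat kinase PXY, which acts in the procambium, the vascular stem-cell tissue, where the pair maintains division and holds back xylem differentiation. Roots and shoots are told apart by the cell types they hold: roots have hair cells, an endodermis with Casparian strips and suberin, a root cap and nutrient transporters, and shoots have photosynthetic mesophyll, stomata, a waxy cuticle and leaf polarity genes. The series, per its title, looked for regulators of vascular proliferation.

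The 41-OX roots held 8387529 to 12226066 counts and the 41-OX shoots 7033091 to 9025246. Levels below are CPM, in which each library's counts are divided by its size, adjusted with TMM, an edgeR method that assumes most genes to be equal between libraries, and differences are log2, root minus shoot, with their standard error (SE). Calls use edgeR's quasi-likelihood test at an adjusted p under 0.05. WT shoot replicate 2 held 167131 counts, so that 1 read there equals 8.28 CPM; it was kept in the tests, and means of WT shoots below are over replicates 1, 3 and 4. One pxy library labelled as root (replicate 2) went against its label, with shoot-specific genes at a median of 95.4% of their shoot mean. In 41-OX root replicate 4, shoot-specific genes stood at a median of 12.8% of their shoot mean, against 0.621% to 2.28% in the other 41-OX roots.

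In 41-OX the organs differed at most genes. Of 20506 genes tested, 16298 (79.5%) were called, 8150 (39.7%) higher in roots and 8148 (39.7%) higher in shoots. Requiring a change beyond 2-fold (a log2 threshold of 1) left 6702 (32.7%), 2951 higher in roots and 3751 higher in shoots. The median log2 difference over all genes was 0.01. Without TMM scaling it was 0.24, and the calls split into 9947 higher in roots and 6582 higher in shoots, so the even split rests on the scaling. In bulk RNA, fewer cells of a type and less RNA per cell cannot be told apart.

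Among genes with a symbol and at least 50 CPM, the widest root-higher difference was that of sks15, a member of the SKU5-similar family of copper oxidase-like cell-surface proteins. It stood at 80.1, 84.7, 85.6 and 68.1 CPM in the 41-OX roots and at 1.90, 2.25, 1.52 and 1.5 CPM in the shoots, a log2 difference of 5.4 (SE 0.14, adjusted p = 5.35e-11). The other root-higher genes at the top were CYP705A30, the myrosinase-family genes BGLU34 and BGLU35, EXPA17 (an expansin of lateral roots), AGP30 (an arabinogalactan protein of the root), MSL9 (a mechanosensitive channel) and the transporter gene ABCG35. Their log2 differences ran from 4.46 to 4.94. BGLU34 and BGLU35 belong to a family of close copies, and reads could be split between such copies.

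The widest shoot-higher differences were those of RbcX1, a Rubisco assembly chaperone, DCF, NdhU and NDF5, of the chloroplast NDH complex, YAB3, a leaf polarity factor, EPFL9 (stomagen, which promotes stomata), BBX17 and PGLP1, of photorespiration. RbcX1 was at 64.9, 61.5, 70.1 and 79.7 CPM in 41-OX shoots and at 0.147, 0.219, 0.503 and 4.98 CPM in the roots, a log2 difference of -5.72 (SE 0.67, adjusted p = 0.000212). The 4 roots did not overlap with the shoots, but replicate 4 was the highest root for all 8 of these genes.

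Root hair genes carried the widest loss of separation between 41-OX organs relative to WT. All 23 members of a root hair list were tested; 22 were higher in 41-OX roots than in 41-OX shoots, yet the organ difference was smaller than in WT for 22 of 23, with a median of -3.29 for the 41-OX minus WT difference. Over all 21104 genes tested in that comparison, 3811 (18.1%) were called, 2337 (11.1%) of them negative, and the median was 0.02. The 23 members stood at a median of 22.1% to 29.0% of their root mean in the 4 41-OX shoots and at 2.04% to 3.05% in WT shoots 1, 3 and 4. Every 41-OX shoot was above WT shoots 1, 3 and 4 for 23 of 23 members, where 18.1% of all genes tested were so. Every 41-OX root was below every WT root for 1 of 23 (9.08% of all genes tested), so it was the shoots that lay outside the WT range.

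Promoters of root hair genes are shown because this list moved furthest. The root hair element, a motif known from expansin and other hair genes, was searched on both strands in the 250 bases before each gene start in TAIR10.1. It was found in 8 of 23 list members (34.78%) and in 207 of 27443 protein-coding genes (0.7543%). The list holds EXPA7, EXPA18 and other hair genes, RHS13 and RHS18 among those with a match. Its share is thus not independent of the genes the motif is known from, and draws no conclusion. Windows from 5 members follow, read 5′ to 3′ on the gene's strand, with the match in capitals.
EXPA7, chr1:4276405-4276465: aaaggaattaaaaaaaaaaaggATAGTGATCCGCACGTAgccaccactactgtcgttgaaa
EXPA18, chr1:23331501-23331560: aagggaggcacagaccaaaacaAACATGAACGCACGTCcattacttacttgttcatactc
RHS18, chr5:7426196-7426255: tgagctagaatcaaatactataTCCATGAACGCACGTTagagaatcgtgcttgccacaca
MRH6, chr2:1132025-1132085: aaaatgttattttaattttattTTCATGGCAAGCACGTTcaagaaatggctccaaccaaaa
PRP3, chr3:23182533-23182593: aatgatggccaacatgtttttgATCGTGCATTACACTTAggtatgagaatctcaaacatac
In PRP3 the match lies on the strand opposite to the gene. Members with a match had 41-OX minus WT differences of -4.63 to -2.88 (median -3.97; 8 of 8 less separated). Members without one ranged from -5.58 to -1.08 (median -2.82; 14 of 15 less separated), so both kinds moved.

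EXPA7, an expansin that loosens the wall of hair cells (chromosome 1, 4276505 to 4277969), was at 93.9, 81.1, 79.9 and 59.6 CPM in 41-OX roots and at 11.2, 11.5, 13.0 and 10.8 CPM in 41-OX shoots. It was at 72.1, 81.3, 60.6 and 68.4 CPM in WT roots and at 0.377, 0, 0.866 and 0.280 CPM in WT shoots. The 41-OX shoots were above every WT shoot and below every root. The organ difference in 41-OX was 2.72 (SE 0.14, adjusted p = 2.28e-09) and its 41-OX minus WT difference was -4.21 (SE 0.35, adjusted p = 5.39e-08). EXPA18 and MRH6, whose promoters are shown above, were at 29.4% and 34.1% of their root mean in 41-OX shoots, against 1.31% and 1.95% in WT.

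RSL4, the basic helix-loop-helix factor that sets hair growth, was at 41.4, 38.2, 45.6 and 39.8 CPM in 41-OX roots and at 10.3, 9.33, 10.2 and 10.8 CPM in 41-OX shoots. WT shoots 1, 3 and 4 were at 1.01, 0.962 and 1.4 CPM. The 41-OX minus WT difference was -3.29 (SE 0.25, adjusted p = 1.94e-08). RHD6, which acts upstream of RSL4, was at 21.9% of its root mean in 41-OX shoots and at 7.59% in WT, with a difference of -1.52 (SE 0.27, adjusted p = 0.000388). XTH26, a xyloglucan-modifying enzyme, was at 11.6 ± 4.75 CPM (SD, n = 4) in 41-OX roots and 8.66 ± 1.29 CPM in 41-OX shoots. Its organ difference in 41-OX did not pass with all libraries (log2 0.41, SE 0.27, adjusted p = 0.195) and passed without 41-OX root replicate 4 (0.57, adjusted p = 0.0268), so that 23 of 23 members were then root-higher. By contrast, in WT roots it was at 31.8 ± 9.51 CPM and in WT shoots at 0.488 CPM. LRX2, a leucine-rich extensin, was the member that did not pass, at -1.08 (SE 0.47, adjusted p = 0.132). RHD2, the NADPH oxidase of hair tips, stood at 9.69% of root in 41-OX shoots and 1.42% in WT.

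**Figure D1:**
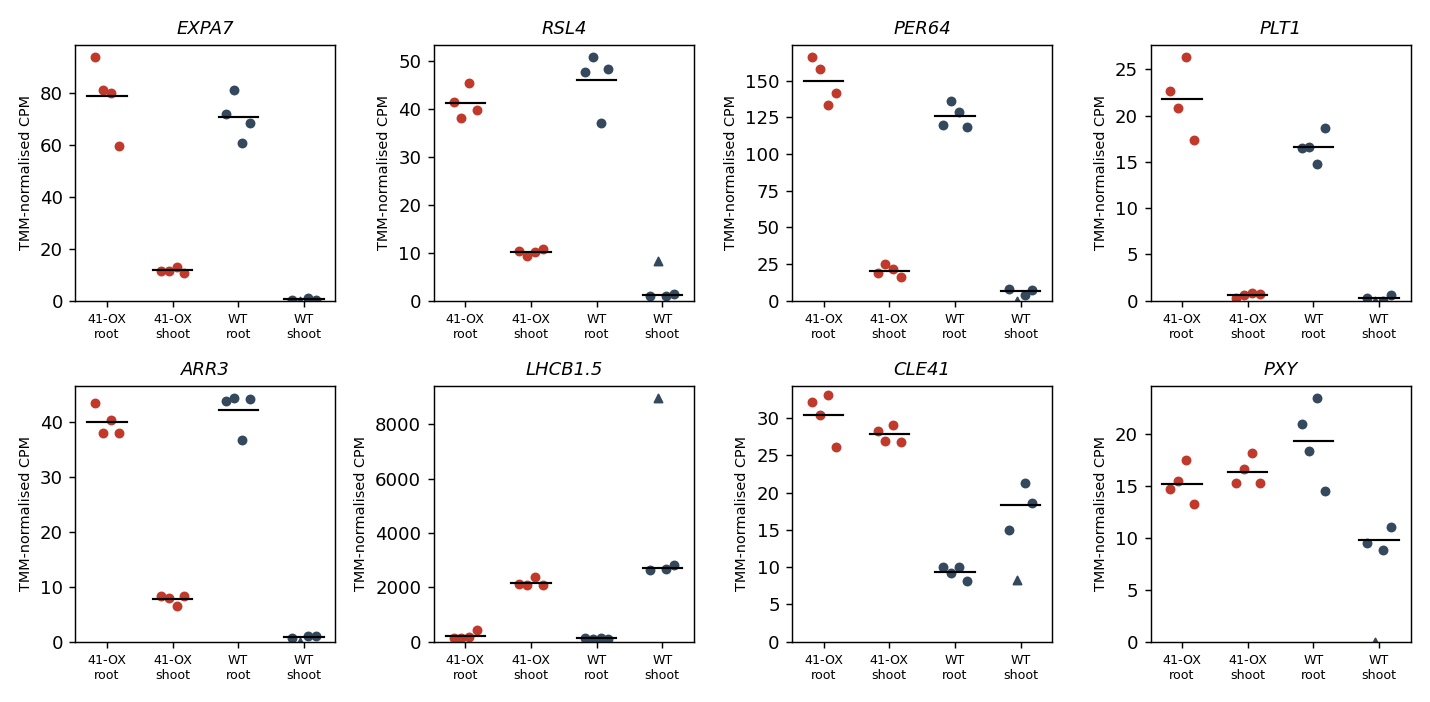
TMM-normalised CPM of 8 genes in each library of 41-OX and WT, on linear axes from 0; points are libraries, the triangle is WT shoot replicate 2 (167131 counts), and black lines are means, without that library for WT shoots. EXPA7, RSL4, PER64 and ARR3 stand higher in 41-OX shoots than in WT shoots 1, 3 and 4, while PLT1 stays near 0 in shoots of both lines, CLE41 and PXY overlap between 41-OX organs, and LHCB1.5 is highest among 41-OX roots in replicate 4 at 445 CPM.

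Genes of suberin, the lipid barrier of older endodermis, also lost separation. Of 13 members tested, 11 were less separated than in WT (median -1.92, 11.1% of all genes negative), and none was more separated. Unlike the hair genes, this list was lower in the roots: every 41-OX root was below every WT root for 11 of 13 members (9.08% of all genes tested), and every 41-OX shoot was above WT shoots 1, 3 and 4 for 6 (18.1% of all genes tested). The summed list was at 461 to 621 CPM in 41-OX roots against 903 to 1045 CPM in WT roots, and at 432 to 615 CPM in 41-OX shoots against 335 to 490 CPM in WT shoots. GPAT5, an acyltransferase of suberin monomers, was at 32.3, 24.1, 24.4 and 19.9 CPM in 41-OX roots and 9.07, 14.7, 15.7 and 10 CPM in 41-OX shoots, against 44.9 ± 2.56 CPM (SD, n = 4) in WT roots and 5.50 ± 0.939 CPM in WT shoots (n = 3). Its 41-OX organ difference was 0.99 (SE 0.19, adjusted p = 0.000441) and its 41-OX minus WT difference -2 (SE 0.25, adjusted p = 7.81e-06). ABCG6, an exporter of the pathway, was at 25% of its root mean in 41-OX shoots and 4.80% in WT. FAR5, a fatty acyl reductase, was at 54.1 CPM in 41-OX roots and 42.8 CPM in 41-OX shoots, and its organ difference did not pass (log2 0.31, SE 0.17, adjusted p = 0.115); it passed without 41-OX root replicate 2 and with plain library totals (0.54, adjusted p = 0.0151). FAR1, another reductase, ran the other way, at 11.5 CPM in 41-OX roots and 179 CPM in shoots; its 41-OX minus WT difference was -0.24 (SE 0.59, adjusted p = 0.819).

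Casparian strip genes, which build the lignin ring of the young endodermis, were higher in 41-OX roots for 13 of 13 tested members (39.7% of all genes). Against WT, 10 of 13 were less separated (median -1.02), where 11.1% of all genes were called negative. There were 8 without 41-OX root replicate 4 (11.1% of all genes) and 8 with DESeq2 (9.8% of all genes). PER64, a peroxidase of the strip, was at 166, 158, 134 and 142 CPM in 41-OX roots and at 19.1, 25.1, 21.5 and 16.3 CPM in 41-OX shoots, against 8.17, 3.56 and 7.01 CPM in WT shoots 1, 3 and 4. The 41-OX shoots were above these WT shoots and the 41-OX roots overlapped with the WT roots. Its 41-OX minus WT difference was -1.51 (SE 0.25, adjusted p = 0.000284). CASP1, the scaffold protein, was at 30.8 ± 5.65 CPM in 41-OX shoots (SD, n = 4) and 10.6 ± 2.3 CPM in WT shoots 1, 3 and 4 (-1.33, SE 0.21, adjusted p = 0.000227). MYB36, the factor that drives the CASP genes, stood at 31% of its root mean in 41-OX shoots and 13.7% in WT (-1.18, SE 0.18, adjusted p = 6.72e-05). CASP1 to CASP5 are close copies, between which reads may be split.

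Of the root nutrient and water uptake genes, fewer were called. Of 18 tested in 41-OX, 17 were root-higher (39.7% of all genes). Against WT, 8 of 19 were less separated (median -0.34, 11.1% of all genes negative). Those that lost separation included the aquaporins TIP4;1, NIP1;1, PIP2;4 and TIP2;3. TIP4;1 was at 105, 116, 112 and 86.1 CPM in 41-OX roots and 10, 15.4, 11 and 10 CPM in 41-OX shoots, against 1.51, 1.54 and 1.96 CPM in WT shoots 1, 3 and 4 (-2.58, SE 0.24, adjusted p = 2.31e-07). NIP1;1 was at 13.3% of its root mean in 41-OX shoots and 3.07% in WT (-2.12, SE 0.22, adjusted p = 1.2e-06). IRT1, the iron transporter, was at 9.96% and 3.47% (-1.5, SE 0.34, adjusted p = 0.00472). PHO1, which loads phosphate into the xylem, was at 205 ± 14.7 CPM in 41-OX roots and 28.9 ± 4.44 CPM in shoots (SD, n = 4), with a 41-OX minus WT value of 0.09 (SE 0.16, adjusted p = 0.734). SKOR, which loads potassium, gave -0.34 (SE 0.34, adjusted p = 0.524), and SULTR1;2, a sulfate transporter, 0.08 (SE 0.13, adjusted p = 0.731).

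Root meristem and root cap genes form a further list. Of 14 tested, 13 were root-higher in 41-OX (39.7% of all genes). Against WT, 4 were less separated (11.1% of all genes negative): WOX5, SMB, BRN1 and BRN2. The gene at locus AT4G26540 was called as more separated by edgeR (0.57) but not by DESeq2. PLT1, the stem-cell factor of the root tip, was at 22.6, 20.8, 26.3 and 17.3 CPM in 41-OX roots and at 0.271, 0.562, 0.762 and 0.752 CPM in 41-OX shoots, a difference of 5.15 (SE 0.25, adjusted p = 1.74e-09). That is 2.69% of the root mean, against 1.63% in WT, and the 41-OX minus WT difference was -0.87 (SE 0.70, adjusted p = 0.417). SMB, a root cap factor, stood at 3.47% against 0.465% (-2.71, SE 0.76, adjusted p = 0.0157), a call lost without 41-OX shoot replicate 2 or WT shoot replicate 4. BRN1, of the same cells, stood at 4.56% against 0.912% (-2.24, SE 0.48, adjusted p = 0.00209). WOX5, of the quiescent centre, was at 37.9% against 15% (-1.27, SE 0.41, adjusted p = 0.0371); its call was lost on leaving out any one of 9 of the 16 libraries. The list stood at a median of 5.25% to 7.73% of root in 41-OX shoots and 3.25% to 9.94% in WT shoots 1, 3 and 4, so the shoots overlapped, where root hair genes did not. Whether root tissue in the shoot samples took part in these values was not tested.

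Root triterpene and ER body genes lost separation for 7 of 9 members (median -1.13, 11.1% of all genes negative). THAS1, the thalianol synthase, was at 288, 263, 239 and 210 CPM in 41-OX roots and 65.7, 98.7, 87.5 and 79.8 CPM in shoots, against 462 ± 44.7 CPM in WT roots and 36.3 ± 12.7 CPM in WT shoots (SD, n = 4 and n = 3). Its 41-OX minus WT difference was -2.10 (SE 0.26, adjusted p = 1.85e-05), with 41-OX roots below all WT roots and 41-OX shoots above all WT shoots. MRN1, marneral synthase, gave -1.97 (SE 0.35, adjusted p = 0.00128). PYK10, the ER body glucosidase, was at 1606 CPM in 41-OX roots and 870 CPM in shoots, and its difference from WT was -0.19 (SE 0.34, adjusted p = 0.751). Without WT shoot replicate 2 it was -0.65 and passed, and 9 of 9 members were then less separated.

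**Figure D2:**
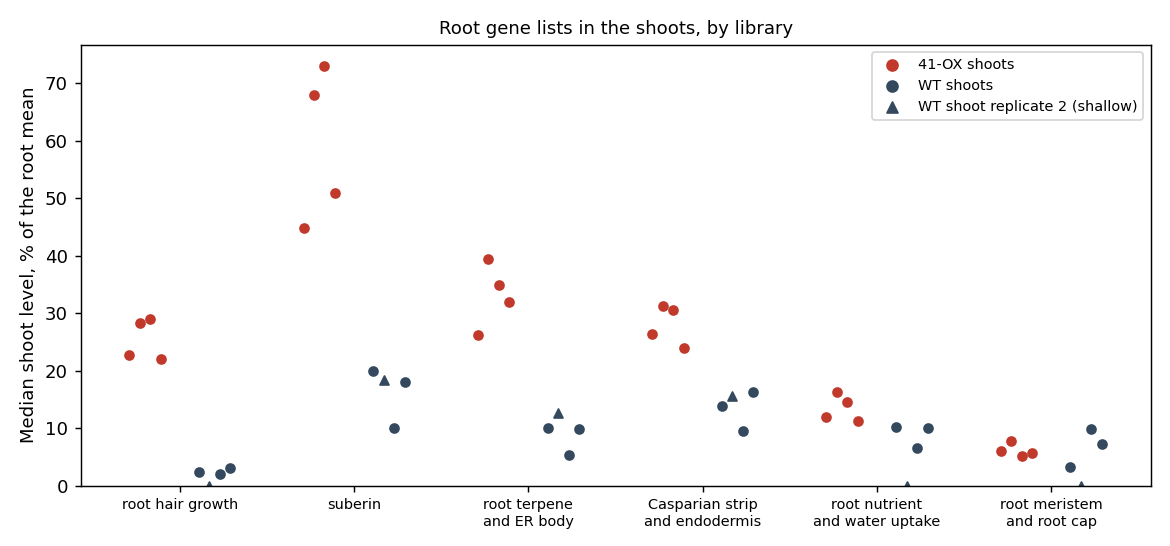
Median shoot level of 6 root gene lists in each shoot library, as percent of the mean root level of the same line, linear axis from 0; red points are 41-OX shoots, dark points WT shoots and the triangle WT shoot replicate 2. Root hair genes lie at 22.1% to 29.0% in 41-OX shoots, above 2.04% to 3.05% in WT shoots 1, 3 and 4, while root meristem and cap genes overlap.

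Of the 10 type-A response regulators, which damp cytokinin signalling, 5 were root-higher and 3 shoot-higher in 41-OX, where 39.7% of all genes went each way. Against WT, 4 of 10 had a more negative organ difference and 2 a more positive one, where 11.1% and 6.98% of all genes did. ARR3 was at 43.5, 37.9, 40.4 and 38.1 CPM in 41-OX roots and 8.26, 7.98, 6.55 and 8.27 CPM in 41-OX shoots. WT shoots 1, 3 and 4 were at 0.628, 1.06 and 0.981 CPM, below every 41-OX shoot, and its 41-OX minus WT difference was -3.18 (SE 0.24, adjusted p = 1.6e-08). ARR16 was at 3.18 ± 0.886 CPM in 41-OX roots and 10.5 ± 2.33 CPM in shoots, while WT roots and shoots were at 8.35 ± 1.66 and 7.83 ± 2.19 CPM; its difference was -1.77 (SE 0.32, adjusted p = 0.000371). This gene gained an organ difference in 41-OX.

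The organ differences of CLE41 and its receptor in 41-OX did not pass the test with TMM scaling. CLE41 (chromosome 3, 9046293 to 9047463) was at 32.1, 30.4, 33.1 and 26.1 CPM in 41-OX roots and at 28.3, 27.0, 29.1 and 26.8 CPM in 41-OX shoots, a log2 difference of 0.09 (SE 0.10, adjusted p = 0.396). With plain library totals it was 0.33 and passed (adjusted p = 0.0103). In WT it was at 10.07, 9.22, 9.98 and 8.21 CPM in roots and at 15, 21.3 and 18.6 CPM in shoots 1, 3 and 4, so the WT shoots were higher. Every 41-OX root was above every WT root, and every 41-OX shoot above WT shoots 1, 3 and 4, as the label of the line has it. The 41-OX minus WT difference was 1.1 (SE 0.17, adjusted p = 5.35e-05). Counts per locus cannot tell transgene from endogenous transcripts.

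PXY (chromosome 5, 24724337 to 24728244) was at 14.7, 15.5, 17.5 and 13.3 CPM in 41-OX roots and at 15.3, 16.6, 18.1 and 15.3 CPM in 41-OX shoots, a difference of -0.14 (SE 0.12, adjusted p = 0.289). It was at 21.0, 18.3, 23.5 and 14.5 CPM in WT roots and 9.55, 8.85 and 11.1 CPM in WT shoots 1, 3 and 4. The 41-OX shoots were above the WT shoots and the roots of the lines overlapped. The 41-OX minus WT difference was -1.09 (SE 0.21, adjusted p = 0.000877).

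Of the 26 genes tested in the TDIF-PXY and procambium list, these 2 among them, 9 were root-higher and 9 shoot-higher in 41-OX. The share over all genes was 39.7% each way. Against WT, 9 of 26 had a more negative and 1 a more positive organ difference, where 11.1% and 6.98% of all genes did. RUL1, a receptor kinase that acts in the cambium, was at 30.7 ± 6.30 CPM in 41-OX roots and 16.2 ± 2.87 CPM in shoots (-1.22, SE 0.21, adjusted p = 0.000214 against WT). SMXL5, a factor of phloem and procambium, was at 26.9 ± 1.15 and 17.3 ± 0.719 CPM (-0.79, SE 0.16, adjusted p = 0.00114). REV, a class III HD-ZIP factor, gave -0.73 (SE 0.15, adjusted p = 0.00132), MP, an auxin response factor, -0.68 (SE 0.17, adjusted p = 0.00647) and TMO6 -0.45 (SE 0.12, adjusted p = 0.0135). The TMO6 call was lost without WT shoot replicate 1. WOX4, a homeobox factor that acts downstream of PXY, was shoot-higher, at 1.03, 0.658, 1.09 and 1.04 CPM in 41-OX roots and 10, 9.33, 8.23 and 7.39 CPM in shoots, and its separation was wider than in WT (-1.03, SE 0.29, adjusted p = 0.0161). WT roots were higher, at 2.29, 1.5, 2.44 and 1.73 CPM.

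Over all genes, 39.7% were root-higher and 39.7% shoot-higher in 41-OX, and 18.1% were called against WT. Of the xylem and secondary wall genes, 12 of 13 were root-higher in 41-OX, and 1 of 13 was called against WT (TED6, 0.63, SE 0.18, adjusted p = 0.0159). CESA8, a cellulose synthase of secondary walls, was at 44.3 ± 3.53 CPM in 41-OX roots and 9.10 ± 1.59 CPM in shoots (SD, n = 4), with a difference from WT of 0.08 (SE 0.18, adjusted p = 0.795). Of 15 phloem genes, 6 were root-higher and 7 shoot-higher, and 4 were called against WT. SUC2, the sucrose loader of companion cells, was at 61.8 CPM in 41-OX shoots against 105 CPM in WT shoots (0.76, SE 0.14, adjusted p = 0.000421), and OPS, a protophloem protein, was at 12.8 CPM against 6.5 CPM (-1.06, SE 0.24, adjusted p = 0.00371). Of 18 cell cycle genes, 17 were root-higher, and 3 of 18 had a more negative organ difference than WT (11.1% of all genes). CYCD3;1, a D-type cyclin, was the shoot-higher one, at 24.1 ± 3.81 CPM in 41-OX roots and 35.9 ± 1.89 CPM in shoots (SD, n = 4), with a 41-OX minus WT difference of -0.67 (SE 0.18, adjusted p = 0.0117).

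Genes of jasmonate and wounding were split: 8 of 17 had a more positive and 4 a more negative organ difference than in WT, where 6.98% and 11.1% of all genes did (median 0.88). Against pxy without pxy root replicate 2, 1 was more positive and 5 more negative (median -0.02), where 4.38% and 9.3% of all genes were. ERF6, a wound- and stress-induced factor, was at 22.7, 21.7, 20.9 and 17.6 CPM in 41-OX roots and 14.1, 14.4, 21.3 and 15.2 CPM in shoots (log2 0.32, SE 0.14, adjusted p = 0.0501; it passed without 41-OX root replicate 4 or shoot replicate 3 and with plain library totals). WT roots were at 12 ± 1.31 CPM and WT shoots 1, 3 and 4 at 44.5 ± 1.56 CPM, so that ERF6 was shoot-higher there, and the 41-OX minus WT difference was 2.26 (SE 0.17, adjusted p = 1.6e-08). WRKY33 gave 1.42 (SE 0.15, adjusted p = 6.33e-07), CML38 2.73 (SE 0.51, adjusted p = 0.00176) and ERF5 1.08 (SE 0.19, adjusted p = 0.000368). VSP1, a vegetative storage protein, gave -1.45 (SE 0.21, adjusted p = 3.01e-05).

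Photosynthesis and carbon fixation genes were shoot-higher for 46 of 46 in 41-OX, and 0 of 46 were called against WT by edgeR's test, with a median of 2.32 over all libraries and 0.73 without 41-OX root replicate 4; DESeq2 called 1 (4.55% of all genes were positive and 9.8% negative with DESeq2). At an unadjusted p under 0.05, 19 of the 46 passed. LHCB1.5, a light-harvesting protein, was at 132, 133, 168 and 445 CPM in 41-OX roots and 2117, 2086, 2368 and 2086 CPM in shoots. Replicate 4 stood above the other roots, and no root reached the shoots. Chlorophyll and greening genes were shoot-higher for 12 of 12. Of these, 3 of 12 were less separated than in WT: GLK1, GLK2 and GNC, factors that promote chloroplast development. Over all genes, 39.7% were shoot-higher in 41-OX and 6.98% were called positive against WT. GLK2 was at 12.7 ± 2.78 CPM in 41-OX roots (SD, n = 4) and 54.2, 60.3, 58.8 and 63.1 CPM in shoots, with WT shoots 1, 3 and 4 at 93.1 ± 7.5 CPM (0.71, SE 0.17, adjusted p = 0.00604). GNC gave 0.99 (SE 0.33, adjusted p = 0.0402) and GLK1 3.12 (SE 1, adjusted p = 0.049), with GLK1 at 13.6 CPM in 41-OX root replicate 4 and at 0.587 to 2.85 CPM in the other roots. Leaving out any one of 11 libraries ended the GNC call, and any one of 13 the GLK1 call. Stomatal genes were shoot-higher for 8 of 8, and 0 of 9 were called against WT by edgeR or DESeq2 (1 of 9 at an unadjusted p under 0.05). Shoot meristem and leaf polarity genes were shoot-higher for 11 of 15 and root-higher for 1 of 15; ANT, which promotes organ growth, was more shoot-biased than in WT (-0.91, SE 0.24, adjusted p = 0.0113).

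**Figure D3:**
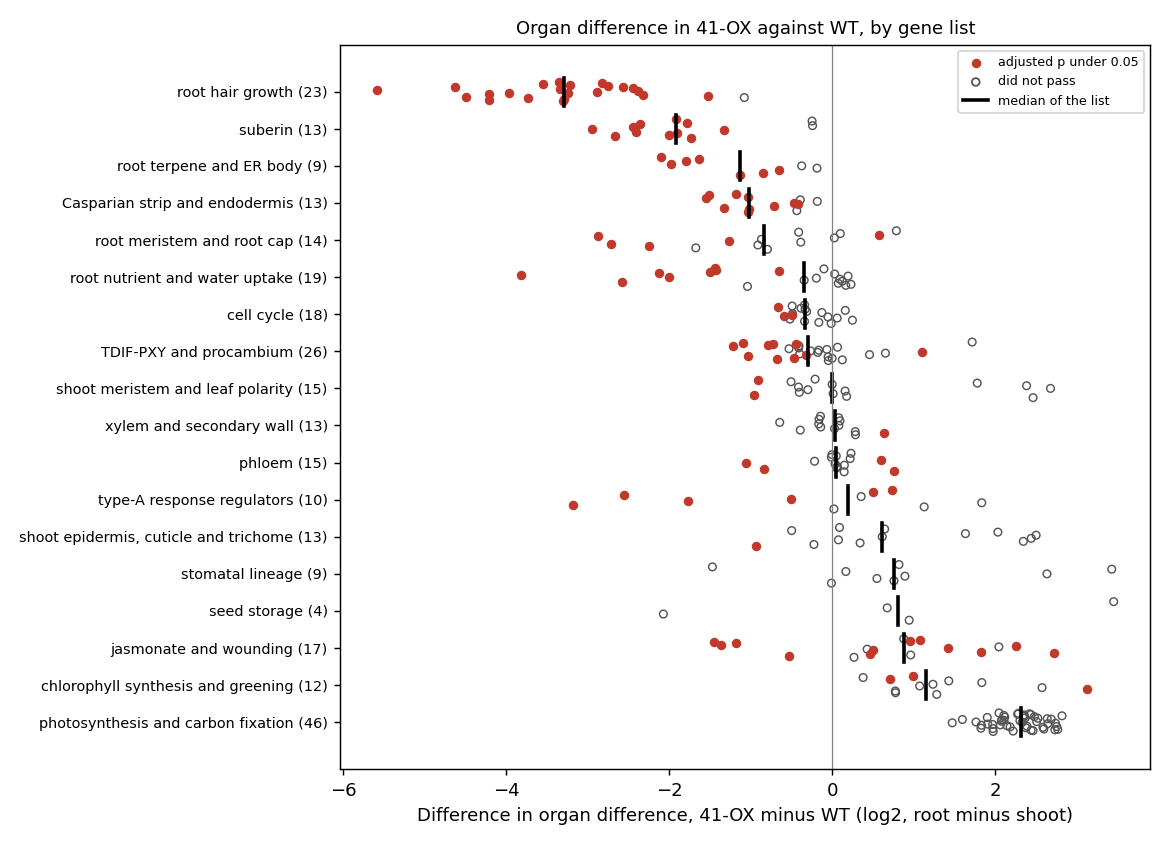
Difference in organ difference, 41-OX minus WT (log2, root minus shoot), for each tested member of 18 gene lists; filled points passed an adjusted p under 0.05, open points did not, and black bars are list medians. Root hair members lie lowest, at -5.58 to -1.08, and photosynthesis members lie above 0 with none passing.

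Organ-specific genes were defined on the pxy libraries other than pxy root replicate 2, which do not enter the comparison with WT: at least 20 CPM in one organ and at least 50-fold less in the other. This gave 109 root-specific and 479 shoot-specific genes, all tested. Their levels chose them in pxy only. The root-specific set lost separation in 41-OX for 94 of 109 genes (median -2.12; 11.1% of all genes were called in this direction), and none gained it. It stood at a median of 4.90%, 5.99%, 4.76% and 5.10% of root in the 41-OX shoots and at 1.03%, 1.09% and 1.63% in WT shoots 1, 3 and 4. Over genes, the 41-OX shoot level was 1.39% to 38.8% of root, with 27 of 109 at 10% or more, and 7 at 20% or more, where 0 of 109 in WT reached 10%. Every 41-OX shoot was above WT shoots 1, 3 and 4 for 101 genes (18.1% of all genes tested), and every 41-OX root above every WT root for 31 (9.41% of all genes tested). Without 41-OX root replicate 4 the count was also 94. Only 4 of the 109 were on the root hair list, and 102 were in no list.

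Among root-specific genes, the largest losses were those of FLA6, AT5G40860, RHS14, EXPA7, RAP2.11, AT1G34330, RHS12 and MES15, with 41-OX minus WT values of -4.45 to -3.78. FLA6, a fasciclin-like arabinogalactan protein, was at 55.7, 30.7, 49.3 and 29.1 CPM in 41-OX roots and 9.62, 13.7, 13.0 and 9.27 CPM in shoots, against 0.754, 0.385 and 1.4 CPM in WT shoots 1, 3 and 4 (-4.45, SE 0.56, adjusted p = 5.63e-05). RHS12, a pectin-modifying hair gene, was at 12.8% of root in 41-OX shoots against 0.827% in WT (-3.96, SE 0.45, adjusted p = 5.18e-06). The 4 with the smallest difference were AT3G06460, AT1G05650, AT2G43610 and AT3G49190, of which AT2G43610 passed (-0.64, SE 0.22, adjusted p = 0.0473) and lost its call on leaving out any one of 10 of the 16 libraries. AT1G05650 stayed at 1.39% of root in 41-OX shoots and 0.797% in WT (-0.77, SE 0.66, adjusted p = 0.462).

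Of the 479 shoot-specific genes, 28 were called less separated (6.98% of all genes were called in this direction) and none more. Without 41-OX root replicate 4, 12 were less and 1 more separated (6.65% of all genes were positive there), and the median fell from 2.16 to 0.39. Without WT shoot replicate 2 there were 21 (background 6.11%). The count was 130 without 41-OX root replicate 1 and 68 without replicate 2. It was 13, 11 and 13 without WT root replicates 2, 3 and 4, and 18 without WT shoot replicate 3 or without 41-OX shoot replicate 1. Shoot-specific genes stood at a median of 0.660%, 0.621%, 2.28% and 12.8% of shoot in the 41-OX roots and at 1.91%, 0.522%, 0.588% and 0.851% in WT roots, so that replicates 3 and 4 stood above every WT root. TIR was at 0.514, 0, 0.671 and 3.42 CPM in 41-OX roots and 6.09, 8.99, 13.3 and 8.64 CPM in shoots, against 38.6 ± 2.58 CPM in WT shoots 1, 3 and 4 (4.24, SE 1.01, adjusted p = 0.00939). Every 41-OX shoot was below every WT shoot for this gene, and the roots overlapped. COR15B and EXPA5, the latter an expansin, were at 3.84 and 22.2 CPM in 41-OX shoots, with 1.66 and 2.38 CPM in root replicate 4. Both were chosen at a mean of at least 20 CPM in pxy shoots, so COR15B was lower in 41-OX shoots than there. Both lost their calls without that library, among others.

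**Figure D4:**
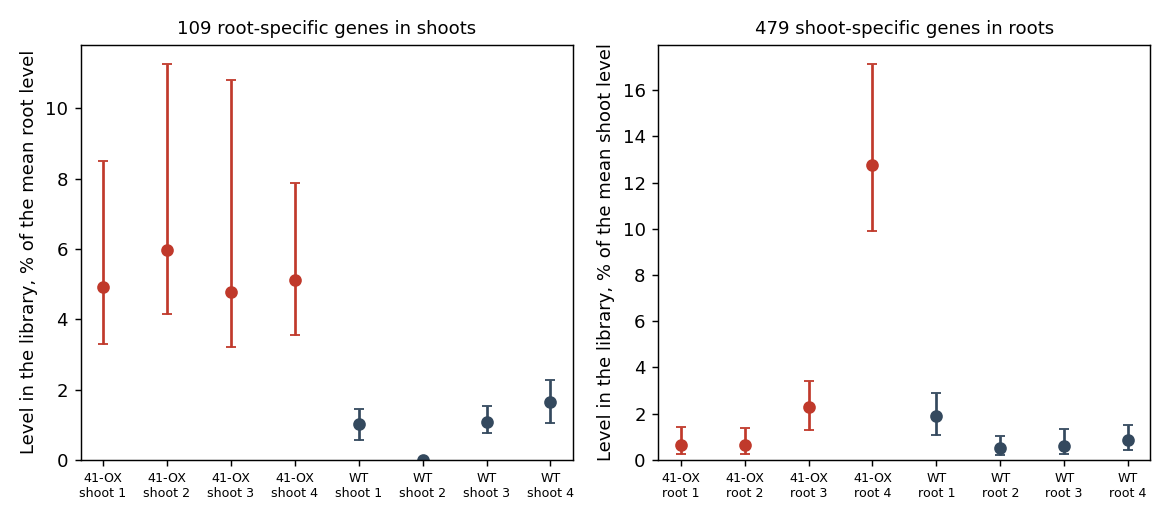
Median and interquartile range, over genes, of organ-specific genes in the other organ, as percent of their mean level in their own organ, for each 41-OX (red) and WT (dark) library. The 109 root-specific genes have medians of 4.76% to 5.99% in all 41-OX shoots. The median of the 479 shoot-specific genes exceeds 2.28% only in 41-OX root replicate 4.

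The share of genes called less separated grew with how root-specific a gene was. Over genes root-higher in pxy, 438 of 2077 (21.1%) with an organ difference of 1 to 2 on the log2 scale were less separated in 41-OX, 818 of 1453 (56.3%) at 2 to 4, 321 of 399 (80.5%) at 4 to 6 and 13 of 13 at 6 or more. Over genes shoot-higher in pxy the counts were 333 of 1841 (18.1%), 297 of 1404 (21.2%), 90 of 601 (15.0%) and 5 of 281 (1.78%). Median 41-OX minus WT differences over these bins were -0.21, -0.92, -2.12 and -2.08 for root-higher genes. For shoot-higher genes they were 0.20, 0.40, 1.29 and 2.38, so the median rose where the share called fell. Without 41-OX root replicate 4 the shoot-higher medians were 0.16, 0.23, 0.36 and 0.36. Genes with more root bias can lose more, so the shares describe where calls lie.

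**Figure D5:**
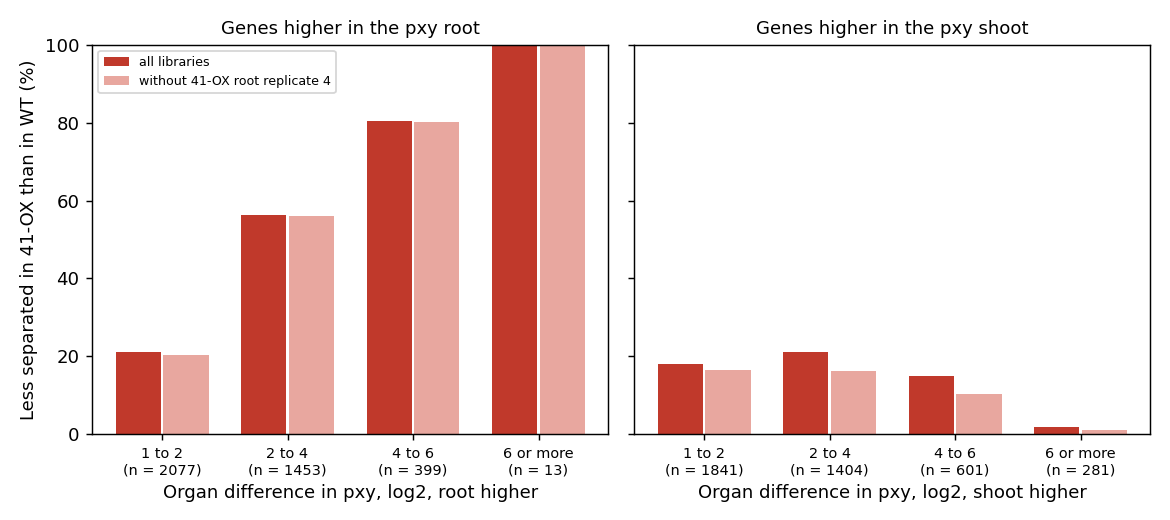
Percent of genes less separated in 41-OX than in WT, by the organ difference in pxy (log2 bins), for genes higher in the pxy root (left) and shoot (right), with all libraries and without 41-OX root replicate 4. Bars rise from 21.1% to 100% for root-higher genes and stay at 21.2% or less for shoot-higher genes.

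Some genes changed order. In the 16 libraries of 41-OX and WT, 142 genes were root-higher in one line and shoot-higher in the other, each organ difference and their difference called, 82 of them shoot-higher in 41-OX. With DESeq2 size factors there were 123, of which 65 were among the 142. In 9 the difference was at least 2-fold in both lines, and all 9 were called opposite with DESeq2 size factors, without WT shoot replicate 2 and without 41-OX root replicate 4. SRO3 was at 1.47, 1.43, 1.17 and 1.45 CPM in 41-OX roots and 6.77, 7.75, 7.93 and 6.51 CPM in 41-OX shoots, and at 2.29, 2.26, 3.88 and 2.51 CPM in WT roots and 0.754, 0.674 and 0.981 CPM in WT shoots 1, 3 and 4. FTM1, an acyl-ACP desaturase, was at 2.74 ± 1.04 CPM in 41-OX roots and 9.75 CPM in shoots, and at 5.69 and 1.68 CPM in WT. The further 7 were chr31, PYL3, NAC042, AT1G20180, AT1G73810, AT2G31985 and AT5G61490, chosen here after their values were seen. All 9 were low, with means in WT shoots 1, 3 and 4 from 0.320 CPM (AT1G20180) to 1.68 CPM (FTM1). AT1G20180 and AT5G61490 each had 8 counts over all WT shoots. PYL3, AT1G73810 and AT2G31985 were not tested in the fit of the 41-OX libraries alone, and PYL3 overlapped between 41-OX organs.

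Gains of separation were fewer. MOT1, a molybdate transporter, was at 4.26, 4.17, 4.36 and 5.29 CPM in 41-OX roots and 0.271, 0.899, 0.305 and 0.626 CPM in shoots, while WT roots were at 1.64, 1.98, 2.44 and 2.33 CPM (2.04, SE 0.49, adjusted p = 0.00539). AT3G60650 was at 0.987 CPM in 41-OX roots and 19.3 CPM in shoots, against 4.56 CPM in WT shoots (-2.53, SE 0.48, adjusted p = 0.000722). KCS1, an elongase of wax synthesis, was lower in 41-OX roots, at 32.8 ± 5.17 against 65.3 ± 5.63 CPM in WT (SD, n = 4), with no overlap between the roots, and 93.8 CPM in 41-OX shoots (-0.93, SE 0.16, adjusted p = 0.000243).

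The 3 seed storage genes tested in 41-OX were shoot-higher, and 0 of 4 were called against WT by edgeR or DESeq2 (0 at an unadjusted p under 0.05; median 0.81). CRU3, a seed storage globulin, was at 13.9, 14.4, 11.4 and 10.8 CPM in 41-OX shoots and 1.63, 1.44 and 1.12 CPM in WT shoots 1, 3 and 4. Its 41-OX minus WT difference was 0.68 (SE 0.58, adjusted p = 0.451).

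Against pxy, 80 of 20944 genes (0.382%) were called with libraries as labelled, and 2887 of 21106 (13.7%) without pxy root replicate 2, 1962 (9.3%) negative and 925 (4.38%) positive. As labelled, 10 (0.0477%) were positive. In the comparison without that library, 21 of 23 root hair genes were called negative; 4 of the 23 were also chosen as root-specific on these pxy libraries, so their values are not independent. MRH6 gave -3.66 and RSL4 -2.68. CLE41 gave 1.01 (adjusted p = 0.00332) and PXY 1.18 (adjusted p = 0.00029). The PXY value was opposite in sign to that against WT. The reference here is the pxy-5 line, so the PXY value cannot be read as a property of 41-OX alone. The 41-OX libraries are shared with the comparison against WT.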

How the data were processed

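RNA-seq was measured in 24 libraries, 4 for each line and organ. Whole-number counts per locus were deposited by the authors; per the submitters' processing notes CASAVA, TopHat2 and HTSeq were used with genome build TAIR10, with no versions given. Strandedness is not given in the sources used here, so overlapping and antisense genes, like near-identical copies, are uncertain. The design text mentions 2 technical replicates per sample, which the counts do not hold apart. Nothing says that replicates came from separate cultures, so p-values measure the spread between these samples, which may be technical. HTSeq's summary lines stayed out of totals; reads in no feature came to 1.82% to 2.37% in 41-OX roots and 2.84% to 3.27% in 41-OX shoots.

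The organ difference was tested with edgeR 4.0.16 (R 4.3.3; TMM, filterByExpr, robust quasi-likelihood, two-sided, Benjamini-Hochberg) on the 8 41-OX libraries, and its difference from WT or pxy as an interaction over 16 libraries. DESeq2 1.42.0 was an alternative. The edgeR step was tested on simulated data. Levels are TMM-normalised CPM over all libraries. Named genes were CLE41 and PXY, the 8 widest organ differences each way with a symbol and at least 50 CPM, up to 4 called members per list, the 8 largest losses and 4 smallest differences among organ-specific genes, and the largest gains; EXPA18, MRH6, RHD6, XTH26, LRX2, CASP1, MYB36, GPAT5, FAR1, FAR5, TIP4;1, NIP1;1, IRT1, SKOR, SULTR1;2, SMB, WOX5, THAS1, MRN1, PYK10, GLK1, REV, MP, TMO6, SMXL5, RUL1, OPS, SUC2, TED6, ERF6, WRKY33, CML38, ERF5 and CYCD3;1 were added after their values were seen. The members and the 18 gene lists were chosen with earlier results of these data known.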

Additional observations from a re-analysis of the deposited data

Results flagged for a closer look

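A single library stood far from the 3 others of its group, by Dixon's criterion, in 35 of 336 groups of values tested. For independent groups chance gives about 1 in 20. These groups share libraries, and some genes were named for their values, so the shares cannot be compared directly. In 41-OX root replicate 4, the shoot-specific genes had a median of 12.8% of their shoot mean. The same library was highest, in CPM, for RbcX1 (4.98), DCF (5.08), NdhU (6.84), BBX17 (5.91), PGLP1 (7.57), LHCB1.5 (445), PSBX (109), PETE1 (19.9), PSAK (246), FTIP1 (24.2), AT3G21460 (1.76), COR15B (1.66), AT1G67865 (10.4), AT1G53870 (1.56), AT1G26761 (2.59), OFP16 (1.87), AT5G52190 (2.18) and CML38 (9.23), and lowest for OPS (10.9). The part of shoot tissue in that sample was not tested.

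In 41-OX shoot replicate 3 the values were 95.7 CPM for PGLP1, 2368 CPM for LHCB1.5 and 21.3 CPM for ERF6, each the highest, and 6.55 CPM for ARR3, the lowest. Replicate 1 of the shoots stood apart for RHS12 (5.55 CPM), ARR16 (13.9 CPM) and AT4G29610 (0.813 CPM). Replicate 2 of the shoots did so for VSP1 (18.1 CPM), AT3G46400 (0.112 CPM) and chr31 (5.84 CPM), and replicate 4 for MRH6 (12.9 CPM). Among the roots, replicate 1 stood apart for AT1G61590 (151 CPM), replicate 2 for BRN1 (23.4 CPM) and WOX4 (0.658 CPM), and replicate 3 for CRA1 (7.80 CPM) and SRO3 (1.17 CPM).

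Between the lines, 3811 genes had an organ difference in 41-OX other than in WT, by edgeR's interaction test.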

How the results depend on the processing

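Leaving out each replicate in turn gave 15794 to 16619 called genes for the organ difference in 41-OX, 3137 to 3886 for its difference from WT, 23 to 2887 for its difference from pxy, 82 to 94 root-specific and 11 to 130 shoot-specific genes less separated than in WT. With a log2 fold threshold of 1 the counts were 6702, 478 and 0 for the first 3 (the last with 531 genes at an unadjusted p under 0.05 and 80 without the threshold). DESeq2 gave 387 against pxy. Fitting all 24 libraries gave 402 against WT and 220 against pxy. The same fit without pxy root replicate 2 and WT shoot replicate 2 held 22 libraries and was chosen after seeing the data. It gave 3418 against WT, 3801 against pxy and 69 shoot-specific genes. Without both WT shoot replicate 2 and 41-OX root replicate 4, also chosen after seeing the data, 12 shoot-specific genes were called. Choosing organ-specific genes at 20-fold gave 259 of 300 root-specific and 66 of 710 shoot-specific genes, and at 5 CPM 165 of 235 and 56 of 645; DESeq2 gave 47 shoot-specific genes. Against WT, TMM gave 1474 positive and 2337 negative calls, DESeq2 size factors 1135 and 2640 (median of all genes -0.02), and plain totals 818 and 3107 (median -0.1). Same-numbered 41-OX root and shoot libraries correlated at -0.05, 0.22, -0.13 and 0.13, so the numbers were not taken as pairs; with a replicate block there were 2899 calls against WT, 0 against pxy (1347 at an unadjusted p under 0.05), 92 root-specific and 8 shoot-specific genes, and AT4G26540 was not called. Over single named genes and alternatives, 6606 values kept their call or its absence, 389 lost the call and 23 gained it. No value was called in the opposite direction. Values that did not pass could change sign, such as TCP4 against WT, at -0.16 to 0.09. The causes were not tested. Depth limits shoots of WT most, through replicate 2, where 1 read equals 8.28 CPM.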
